A study of Mus musculus with 24 samples.

Results

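MHC class II presentation was described here by 8 genes of the mouse, taken as a list of gene names: *H2-Aa*, *H2-Ab1*, *H2-Eb1*, *H2-DMa*, *H2-DMb1*, *Cd74*, *Ciita* and *Ctss*. These were 8 of the 53465 genes in the count table, and all 8 were among the 15044 genes with enough reads to be tested. *Ptprc*, which encodes the leukocyte surface protein CD45, was followed beside them as a measure of immune-cell RNA.

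The cells came from Guca2a-Venus mice, a transgenic line in which the guanylin promoter of a bacterial artificial chromosome drives the fluorescent protein Venus. The line descends from 1 founder and was backcrossed to C57Bl6J to a varying degree, and all 8 groups carry the transgene. The injected ova came from crosses of C57Bl6J and CBA mice. The sources used here do not say which strain's MHC genes a library carried, and the part of strain was not tested. Epithelium of the duodenum, jejunum, ileum and colon was dissociated, and Venus-positive cells (labelled GFP positive) and Venus-negative cells (labelled GFP negative) were sorted, with dead cells, debris and cells bearing CD45 gated out. This gave 24 libraries, 3 in each of 8 groups formed by 4 regions and 2 sorts. The mice ate standard chow and received no treatment, and the sources used here give no age for them. The design names 3 mice, but the labels do not say which library came from which mouse, so the p-values below measure the spread between these libraries, which may be partly technical. A library held 7458616 to 23063124 reads on genes, of which mitochondrial genes took 32.3% to 80.7%. Levels are given in CPM, counts scaled to a common library size with edgeR's TMM factors, and 3 counts, which corresponded to 0.130 to 0.402 CPM, were taken as the floor of detection. This floor covers counting error only. Since these are bulk samples, fewer cells of a type and less RNA per cell cannot be told apart.

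MHC class II molecules hold peptides from proteins taken up by a cell and show them to CD4 T cells. They are made constitutively by dendritic cells, macrophages and B cells, and the epithelium of the small intestine is known to carry them as well, more so after interferon gamma has induced the coactivator CIITA. A newly made class II dimer is filled by the invariant chain CD74, which proteases such as cathepsin S cut down to a fragment, and H2-DM then exchanges that fragment for a peptide.

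The CIITA coactivator works through a module of short elements, of which the X box and the Y box bind the RFX complex and NF-Y. Promoter windows from RefSeq on GRCm38.p6 were matched for 5 of the 8 genes, and the following 120 bases before the start site are shown because the class II chains and *Ctss* differ in which of these letters they hold. The capitals mark a cAMP response element (TGACGTCA) and a Y box (TGATTGG) in *H2-Aa*, an X box core (AGNNACNGATG) and a Y box in *H2-Eb1*, and the core of an interferon-stimulated response element (GAAANNGAAA) in *Ctss*.
H2-Aa, chr17:34287824-34287943, minus strand: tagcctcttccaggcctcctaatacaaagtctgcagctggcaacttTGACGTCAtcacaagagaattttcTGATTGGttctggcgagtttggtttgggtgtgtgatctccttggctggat
H2-Eb1, chr17:34305747-34305866, plus strand: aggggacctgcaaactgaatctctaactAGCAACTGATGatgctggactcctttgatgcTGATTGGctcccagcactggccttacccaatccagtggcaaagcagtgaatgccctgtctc
Ctss, chr3:95526666-95526785, plus strand: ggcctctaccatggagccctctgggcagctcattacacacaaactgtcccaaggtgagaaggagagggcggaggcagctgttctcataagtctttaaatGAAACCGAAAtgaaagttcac

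The X box core and the Y box lay 20 bases apart in *H2-Eb1*, 92 to 82 and 61 to 55 bases before the start. In *H2-DMb1* the X box core read AGTAACTGATG at 95 to 85 bases before the start, with a Y box 21 bases further on. In *H2-Aa* the Y box stood 50 to 44 bases before the start and no X box core of these letters was found, while the *Ctss* element ended 12 bases before the start. Neither window of *H2-DMa* held any of the 5 motifs searched, the fifth being the gamma-activated site TTCNNNGAA, which no member held. Searched on both strands of all 32851 windows, each from 250 bases before to 50 bases after a start, the X box core was in 0.968%, the cAMP response element in 1.79%, the interferon element in 3.44%, the Y box in 7.82% and the gamma-activated site in 8.3%. *H2-Ab1*, *Ciita* and *Cd74* were not among the windows.

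Venus-positive cells of the jejunum and ileum held the highest mean levels of the class II chains, and the cells of the colon, in both sorts, the lowest. *H2-Aa*, the alpha chain of the I-A molecule (chr17:34282744-34287823 on GRCm38), was at 8.94, 49.2 and 22.9 CPM in the positive libraries of the jejunum and at 1.44, 9.83 and 4.11 CPM in the negative ones. In the ileum it was at 20.3, 139.7 and 50.4 CPM in positive and 3.50, 26.3 and 12.2 CPM in negative cells. The ranges overlapped in both regions, since the highest negative library stood above the lowest positive one. In the duodenum *H2-Aa* was near the floor in both sorts, with 9, 22 and 11 counts against 10, 34 and 6, and in the colon 3 of the 6 libraries had 0 counts.

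*H2-Ab1*, the beta chain of the same molecule (chr17:34257689-34269419), was measured at 73.3, 219.75 and 87.8 CPM in positive in the jejunum, against 6.90, 54.3 and 15.8 CPM in negative cells. Here every positive library was above every negative one. In the ileum the positive libraries gave 68.2, 322 and 124 CPM and the negative ones 21.6, 93.8 and 58.5 CPM, which overlapped. In the duodenum *H2-Ab1* stood at 13.5, 26.6 and 15.7 CPM against 3.50, 14.8 and 7.85 CPM, overlapping by 1 library on each side. The colon had the lowest levels, 3.24, 1.49 and 2.84 CPM against 1.08, 0.659 and 0.850 CPM, and there again all positive libraries were above the negative ones, at 21 to 44 counts each against 9 to 10.

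*H2-Eb1*, the beta chain of the I-E molecule (chr17:34305867-34316674), followed the same order. In the jejunum it was at 14.9, 78.1 and 25.6 CPM in positive and 0.455, 21.3 and 3.69 CPM in negative cells, and in the ileum at 26.4, 99.1 and 41.7 CPM against 7.46, 39.9 and 15.3 CPM. Both regions overlapped by 1 negative library. In the duodenum it was at 1.43 to 5.09 CPM in positive and 1.12 to 3.24 CPM in negative cells, and in the colon at 0.778 to 0.926 CPM and 0.170 to 2.87 CPM.

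*Cd74*, the invariant chain (chr18:60803848-60812652), was the most abundant member of the ileum per length. Divided by the exon length, its mean in positive cells of the ileum was 185 CPM per kb, against 93.3 for *Ctss*, 66.8 for *H2-Ab1*, 28.7 for *H2-Eb1*, 18.5 for *H2-Aa*, 6.13 for *H2-DMb1*, 2.08 for *H2-DMa* and 0.944 for *Ciita*. By library, *Cd74* was at 127, 587 and 217 CPM in positive and 61.7, 199 and 83.7 CPM in negative cells of the ileum. In the jejunum it was at 56.6, 270.5 and 100.3 CPM in positive and 6.14, 88.8 and 31.4 CPM in negative cells. Both regions overlapped. The duodenum held 4.61, 9.35 and 11.7 CPM against 3.50, 7.84 and 10.0 CPM and the colon 3.01, 1.98 and 2.77 CPM against 0.240, 1.98 and 2.97 CPM, so that the sorts overlapped throughout.

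The chaperone H2-DM and the regulator were measured at lower counts. *H2-DMb1*, the beta chain of H2-DM (chr17:34153072-34160230), was at 4.03, 16.1 and 10.8 CPM in positive and 1.65, 6.80 and 5.15 CPM in negative cells of the ileum, whereas no library of the colon had more than 3 counts. *H2-DMa*, its alpha chain (chr17:34119541-34139101), was at 3.28, 13.5 and 4.70 CPM against 2.43, 7.47 and 3.32 CPM in the ileum and had 0, 0 and 5 counts in the negative libraries of the colon. *H2-DMa* overlaps *Brd2* on the other strand over 3094 bases, and since the sources used here do not give the strand setting of the counting, reads of the 2 genes could have been mixed. *Ciita*, the coactivator (chr16:10480059-10528418), which also overlaps a gene on the other strand (*Dexi*), was at 5.33, 16.4 and 5.29 CPM in positive and 4.25, 9.83 and 1.99 CPM in negative cells of the ileum. In the duodenum *Ciita* had 0, 4 and 0 counts in positive and 8, 16 and 6 counts in negative cells, so every positive library was below every negative one. In the colon *Ciita* had 0, 4 and 1 counts in positive cells and 0 in each negative library.

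*Ctss*, cathepsin S (chr3:95526786-95556403), did not follow the class II chains along the gut. Positive cells held 114, 71.2 and 116 CPM in the jejunum, 68.1, 136 and 176 CPM in the ileum and 98.6, 97.7 and 87.3 CPM in the colon. Negative cells held 23.2, 33.1 and 46.2 CPM, 19.9, 29.5 and 47.7 CPM, and 29.1, 35.1 and 46.0 CPM in the same regions. In each of these 3 regions all positive libraries were above all negative ones. The duodenum differed, with 22.3, 17.5 and 30.0 CPM in positive and 23.6, 33.7 and 33.4 CPM in negative cells, which overlapped.

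**Figure D1:**
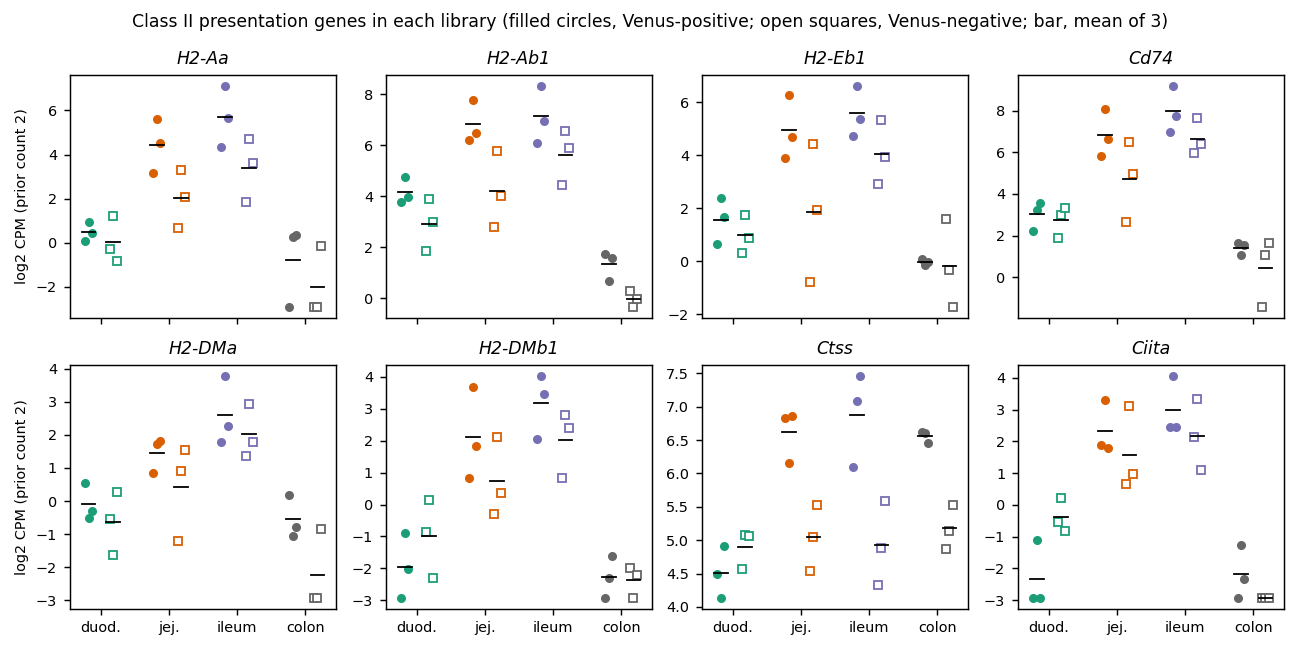
Level of each of the 8 genes in every library, as log2 CPM with a prior count of 2 (vertical axis), by region (horizontal axis), with filled circles for Venus-positive and open squares for Venus-negative cells and a bar at the mean of 3 libraries. The class II chains, *Cd74*, *H2-DMb1* and *Ciita* peak in the jejunum and ileum and fall to the lowest levels in the colon or duodenum, whereas *Ctss* in positive cells stays high in the colon.

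Whether Venus-positive cells held more class II RNA than their neighbours was tested within each region with edgeR. In the jejunum 2 members rose in positive cells, and 4 with scaling by library size alone, where 3344 genes were called higher and 2942 lower against 2747 and 3857: *H2-Ab1* by 2.30 on the log2 scale (SE 0.75, 95% interval 0.73 to 3.88, adjusted p = 0.0186) and *Ctss* by 1.55 (SE 0.34, adjusted p = 0.000391). Over all genes tested, 18.3% were called higher and 25.6% lower in this region, so that 2 of 8 was near the background for the members as a list. The same 2 members were those with every positive library above every negative one, a separation that 22.6% of all genes showed. The remaining members had estimates of 0.52 (*Ciita*) to 2.39 (*H2-Aa*), and the 2 nearest to the threshold were *H2-Aa* (adjusted p = 0.0567) and *H2-Eb1* (2.22, adjusted p = 0.0835). DESeq2 called 3 members in the jejunum, against 2 by edgeR, beside 3254 of 15674 genes called higher. The call on *H2-Ab1* was lost when any of jejunum negative library 1, positive library 2 or negative library 3 was left out, with a highest adjusted p of 0.0911. Without jejunum negative library 2 the number of members called rose from 2 to 6, while 2572 of 15844 genes tested were called higher, against 2747 of 15044.

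In the ileum only *Ctss* passed the test, by 1.97 (SE 0.34, adjusted p = 3.16e-05), against 17.8% of all genes called higher and 20.6% called lower. It was also the 1 member whose sorts did not overlap, beside 23.2% of all genes. *H2-Aa* had an estimate of 2.32 (95% interval 0.31 to 4.33, adjusted p = 0.0637) and *H2-Ab1* of 1.56 (adjusted p = 0.0997). The other estimates lay between 0.70 (*H2-DMa*, adjusted p = 0.486) and 1.43 (*Cd74*, adjusted p = 0.188).

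In the colon *Ctss* rose by 1.36 (SE 0.34, adjusted p = 0.00606), beside 9.19% of all genes called higher and 3.72% called lower. *H2-Ab1* separated the sorts as well, as 19.1% of all genes did, but its log2 fold change of 1.57 missed the threshold (adjusted p = 0.321). *H2-DMa* had an estimate of 1.96 (adjusted p = 0.226) and *H2-Eb1* of -0.41 (adjusted p = 0.891). For *H2-DMb1* and *Ciita* no fold was formed, as both sorts were close to the floor.

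In the duodenum no member was called by edgeR or by DESeq2, and 1 had an unadjusted p under 0.05 in edgeR. The background there was 8.92% of genes higher and 8.10% lower, or 1342 and 1218 genes, and scaling by library size alone gave 2247 and 347. That 1 gene was *Ciita*, lower in positive cells by estimate (adjusted p = 0.140), for which no fold is given since the value rests on the 4 counts of 1 positive library. It was the 1 member whose positive libraries were all below the negative ones, as 21.0% of all genes were, and no member had all positive libraries above, as 16.2% of genes did. *Ctss* had an estimate of -0.38 (95% interval -1.06 to 0.31, adjusted p = 0.471), an interval that ends below its estimates in the other 3 regions.

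Taken as a list, the members had a median log2 fold change of 1.65 in the jejunum, with 8 of 8 estimates above 0, and of 1.42 in the ileum, again with 8 of 8. Without positive library 2 of the region, *Ciita* turned to -0.0732 in the jejunum and to -0.0209 in the ileum, and *H2-DMa* to -0.15 in the ileum. The median over all genes tested was -0.28 and -0.27 in these regions. In the colon the median was 1.42 over the 6 members with a fold (5 of 6 above 0, median of all genes 0.00) and in the duodenum 0.26 (5 of 8 above 0, median of all genes -0.16), which counts *Ciita* and *H2-DMb1* with their fitted values. The median of the colon includes *H2-Aa* (1.49) and *H2-DMa* (1.96), which had 0, 0 and 9 and 0, 0 and 5 counts in negative cells. The other members with a fold there ran from -0.41 (*H2-Eb1*) to 1.57 (*H2-Ab1*). The estimates share libraries and rise and fall together across libraries, so the 8 are not independent.

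**Figure D2:**
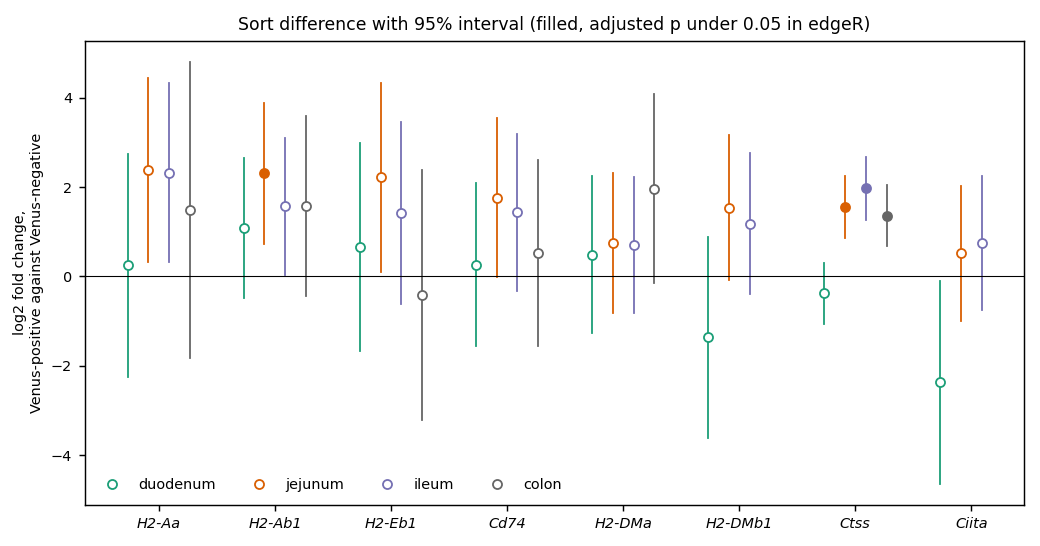
Log2 fold change of Venus-positive against Venus-negative cells (vertical axis) with its 95% interval, for each gene (horizontal axis) and region (colour), from edgeR. Filled points have an adjusted p under 0.05: *H2-Ab1* in the jejunum and *Ctss* in the jejunum, ileum and colon. *H2-DMb1* and *Ciita* have no point for the colon, where both sorts were near the floor, and their points for the duodenum rest on 0, 4 and 0 counts (*Ciita*) and 0, 5 and 1 counts (*H2-DMb1*) in positive cells.

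The difference between the sorts was then compared between regions. *Ctss* was the single member for which the joint test of the 3 interaction terms passed (adjusted p = 0.00283), beside 17.3% of all genes. The other members had adjusted p values of 0.157 to 0.828 in this test, so a sort difference confined to some regions was not shown for them. For *Ctss* the duodenum was below the jejunum by 1.93 (SE 0.48, adjusted p = 0.00584), where 5.84% of genes were called lower, and below the ileum by 2.35 (SE 0.48, adjusted p = 0.00129), where 5.94% were. It was below the colon by 1.74 (SE 0.48, adjusted p = 0.0317, beside 2.13% of genes), and this last difference was called in 8 of 13 alternative settings, with a highest adjusted p of 0.271, and in 4 of 12 fits that left out 1 library. Between the jejunum, ileum and colon the sort difference of *Ctss* differed by 0.19 to 0.61 in size, with adjusted p values of 0.538 to 0.909.

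Along the gut, the members other than *Ctss* differed mainly between the jejunum and ileum on one side and the duodenum and colon on the other. In positive cells, 7 of 8 members were lower in the duodenum than in the jejunum, beside 14.8% of all genes. The calls on *Ciita* (adjusted p = 0.000199) and *H2-DMb1* (adjusted p = 0.000441) rest on 0, 4 and 0 and on 0, 5 and 1 counts in the duodenum, so no fold is given for them. The other differences ran from *H2-Aa* (-4.33, adjusted p = 0.00661) over *Cd74* (-4.06, adjusted p = 0.00292) and *H2-Eb1* (-3.62, adjusted p = 0.0171) to *H2-Ab1* (-2.77, adjusted p = 0.00971) and *Ctss* (-2.11, adjusted p = 1.95e-05). *H2-DMa* was the exception (-1.66, adjusted p = 0.120). Against the ileum all 8 were lower in the duodenum, beside 12.4% of genes lower and 13.0% higher, with estimates, leaving out *Ciita* and *H2-DMb1*, from -5.70 (*H2-Aa*, adjusted p = 0.00173) to -2.45 (*Ctss*, adjusted p = 4.73e-06).

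Positive cells of the colon were below those of the jejunum and ileum for the 7 members other than *Ctss*. Compared with the colon, 7 of 8 members were higher in the jejunum, beside 14.4% of genes, and 7 of 8 in the ileum, beside 10.6%. In the ileum *Cd74* was higher by 6.90 (SE 1.08, adjusted p = 0.000161), *H2-Aa* by 6.52, *H2-Ab1* by 6.08 and *H2-Eb1* by 6.03, while *H2-DMb1*, at or under the floor in the colon, was at least 48.5-fold higher. The jejunum gave 5.78 for *Cd74*, 5.65 for *H2-Ab1* and at least 27.7-fold for *H2-DMb1*, and the smallest call, *H2-DMa* at 2.17 (adjusted p = 0.0415), was kept in 2 of 6 fits that left out 1 library. *Ctss* was at 94.5 ± 6.26 CPM (SD, n = 3) in the colon, 100.2 ± 25.2 CPM in the jejunum and 127 ± 54.4 CPM in the ileum, and differed from the colon by 0.08 (95% interval -0.59 to 0.76) and 0.42 (95% interval -0.25 to 1.10). The duodenum was above the colon for *H2-Ab1* (2.88, adjusted p = 0.0240, beside 5.82% of genes higher) and below it for *Ctss* (-2.02, adjusted p = 6.31e-05, beside 6.52% lower), and this call on *H2-Ab1* was kept in 2 of 6 fits without 1 library.

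The jejunum and the ileum did not separate. None of the 8 members was called between them in positive cells by edgeR or DESeq2, and none had an unadjusted p under 0.05, beside 5.20% of all genes called. The intervals were wide, for example -3.32 to 0.57 for *H2-Aa* and -2.86 to 0.62 for *Cd74*. For the 7 members other than *Ctss*, the mean in positive cells was thus highest in the ileum and next in the jejunum, which did not differ beyond their spread. The duodenum and colon followed, with only *H2-Ab1* passing the test between these, and the step from jejunum to duodenum did not pass for *H2-DMa*.

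In negative cells members differed along the gut as well. In the ileum 4 members were above the duodenum, beside 1.64% of genes: *Cd74* (duodenum lower by 4.01, adjusted p = 0.0174), *H2-DMb1* (3.18, adjusted p = 0.0324), *Ciita* (2.97, adjusted p = 0.0333) and *H2-DMa* (2.85, adjusted p = 0.0440). Each of these was kept in only 1 or 2 of the 6 fits that left out a library, and DESeq2 called 7 members in this comparison. With scaling by library size alone, 2207 of 15044 genes were lower and 226 higher in the duodenum than in the ileum, against 247 and 409. All 12 calls on members with a fold in negative cells were kept under that scaling. Relative to the colon, 6 members were higher in the ileum, beside 2.94% of genes, and 5 in the jejunum, beside 6.63%, among them *H2-Ab1* by 6.09 and 4.92 and *Cd74* by 5.99 and 4.54. Scaling by library size alone gave 1626 genes higher and 231 lower in the ileum than in the colon, against 442 and 328. With the summed pan-leukocyte genes as a covariate, the calls on members over all 6 comparisons of regions in negative cells fell from 17 to 8, and those over all genes from 5083 to 4247. *Ciita*, at 0 counts in all negative libraries of the colon, was at least 19.3-fold higher in the ileum, at least 14.0-fold in the jejunum and at least 2.43-fold in the duodenum. The duodenum was above the colon for *Ciita* and *H2-Ab1* (3.36, adjusted p = 0.0228), beside 6.65% of genes. Between the duodenum and jejunum 0 members were called by edgeR and 0 by DESeq2, with 3 at an unadjusted p under 0.05, beside 0.691% of genes, and between the jejunum and ileum 0 were called by either tool and 0 at an unadjusted p under 0.05, beside 2.04% of genes. *Ctss* was at 30.2 to 36.8 CPM on average in the 4 negative groups, and none of its 6 differences between regions, from -0.28 to 0.08, was called.

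In the small intestine the highest library of a group was the same one for most members. In the ileum, library 2 of the positive cells was the highest of its group for 7 of 8 members, as was library 2 of the negative cells, and in the jejunum library 2 was the highest for 6 of 8 members in each sort. In the duodenum library 2 was the highest for 5 of 8 members in positive and 6 of 8 in negative cells. No library of the colon was the highest for more than 5 of 8. *Cd74* in the highest positive library of the ileum was 2.71 times that of the next one, and *H2-Eb1* in the highest negative library of the jejunum 5.77 times. Library numbers were given in accession order, and the labels do not tie a positive to a negative library. Taken by number alone, each member was higher in the positive than in the negative library of every number in the jejunum and ileum. The share of all genes for which this holds was not counted, so nothing particular to the members is read from it. Over the 24 libraries, the Pearson correlation between the log2 CPM of any 2 members other than *Ctss* was between 0.78 and 0.95, and that of *Ctss* with each of the other 7 was between 0.29 and 0.44, values that include the differences between the 8 groups.

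The 6 epithelial markers, among them *Epcam* and *Cdh1*, summed to 1564 to 4081 CPM per library. *Ptprc* had 0 to 97 counts per library in these cells, which had been sorted against the CD45 protein it encodes. It had 0, 0 and 2 counts in positive and 3, 15 and 4 counts in negative cells of the duodenum, 0, 11 and 8 against 0, 40 and 20 in the jejunum, 13, 73 and 4 against 37, 97 and 17 in the ileum, and 7, 13 and 32 against 1, 7 and 14 in the colon. The sorts overlapped in every region, and *Ptprc* did not pass the test in any region, with adjusted p values of 0.235 to 0.943. In the ileum it was at 1.79 ± 2.25 CPM (SD, n = 3) in positive and 1.96 ± 1.29 CPM in negative cells, and the mean of the positive cells rests on library 2, at 4.38 CPM, since the other two were at 0.699 and 0.294 CPM. Negative cells of the jejunum held 1.26 ± 1.29 CPM of *Ptprc* and 25.7 CPM of *H2-Ab1* on average, and positive cells of the colon 1.17 ± 0.793 CPM of *Ptprc* and 2.52 CPM of *H2-Ab1*.

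The class II genes and *Ptprc* did not keep 1 ratio. Positive library 1 of the jejunum had 0 counts of *Ptprc*, which allows up to 3, together with 1148 counts of *H2-Ab1* and 886 counts of *Cd74*. With *Ptprc* set to at least 3 counts, *H2-Ab1* had 151 to 383 counts per count of *Ptprc* in positive and 13.1 to 30.3 in negative cells of the jejunum, 73.5 to 422 against 14.1 to 62.1 in the ileum, 44 to 108 against 15.3 to 27.3 in the duodenum, and 1.38 to 6 against 0.714 to 3 in the colon. In the ileum, where each library had more than 3 counts of *Ptprc*, this ratio was higher in every positive than in every negative library. The highest ratios there, 422 for *H2-Ab1* and 737 for *Cd74*, rest on 4 counts of *Ptprc* in positive library 3. The share of other genes with such an order was not counted. In the other regions no order is read for either gene, since a negative library of each was at or under the floor of *Ptprc* and a ratio there can be a lower bound. For *Cd74* the ratio was 134 to 737 in positive and 40.4 to 88.9 in negative cells of the ileum. The values with the same minimum of 3 counts were 172 to 441 and 26 to 34.5 in the jejunum, 15 to 38 and 8.07 to 34.8 in the duodenum, and 1.34 to 5.57 and 0.667 to 3.86 in the colon. In the jejunum and in the ileum, library 2 of each sort was the highest of its group for *Cd74*, for *Ptprc* and for the summed T-cell genes. Across the 24 libraries the Pearson correlation of the members with *Ptprc* was between 0.20 and 0.42, a description over points that share region, sort and depth.

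**Figure D3:**
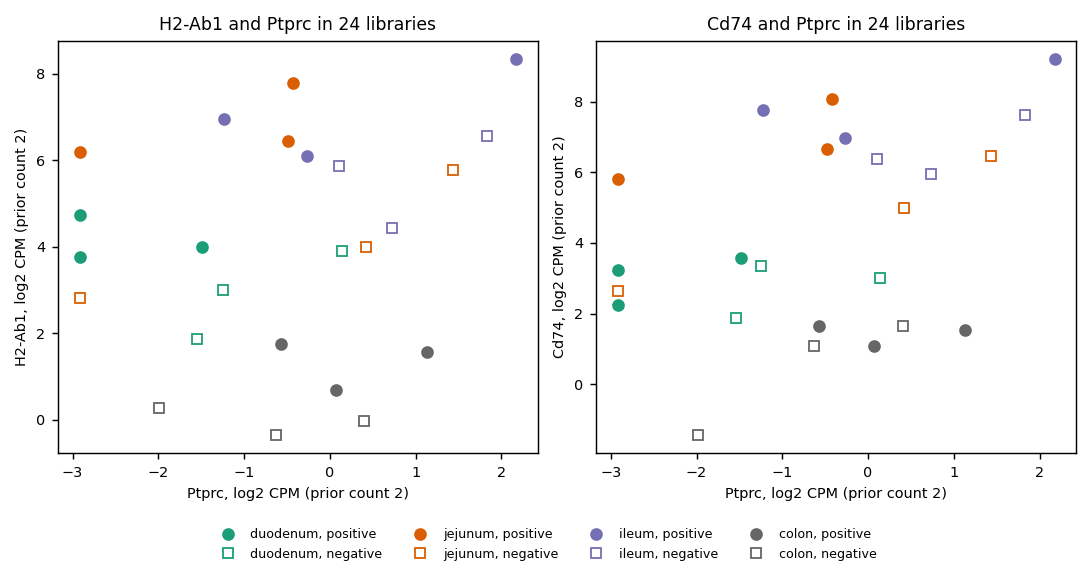
*H2-Ab1* (left) and *Cd74* (right) against *Ptprc* in the 24 libraries, each as log2 CPM with a prior count of 2, with filled circles for Venus-positive and open squares for Venus-negative cells and colour for the region. Libraries with 0 counts of *Ptprc* stand at the left edge and include a positive library of the jejunum with 73.3 CPM of *H2-Ab1*, while the libraries of the colon lie at the bottom, at 0.120 to 2.06 CPM of *Ptprc*.

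The summed levels of the pan-leukocyte list and of the dendritic cell and macrophage list were lower in every positive than in every negative library of the jejunum, and those of the latter also in the ileum, where the pan-leukocyte sums overlapped. The pan-leukocyte sums were lower in every positive library of the duodenum as well, at 4.50 to 4.83 CPM against 6.24 to 9.73 CPM. Of 12 pan-leukocyte genes, 9 could be tested, and 2 fell in positive cells in the jejunum and 2 in the ileum, with none higher in any region. That share was near the 25.6% and 20.6% of all genes called lower there. All 4 tuft cell genes tested fell in these regions too, and their part in these levels was not tested. *Vav1*, a signalling protein of blood cells, was at 0.646, 1.20 and 0.441 CPM in positive and 5.32, 7.33 and 7.70 CPM in negative cells of the ileum (-3.13, adjusted p = 0.000213), and *Lcp1*, an actin-bundling protein of leukocytes, fell by 2.38 in the jejunum and fell by 2.04 in the ileum. The summed level of the 12 genes was 2.36 to 3.40 CPM in positive and 7.56 to 14.4 CPM in negative cells of the jejunum, and 5.38 to 13.3 CPM against 12.7 to 24.6 CPM in the ileum. The 17 genes of dendritic cells and macrophages summed to 1.47 to 2.95 CPM against 4.55 to 7.20 CPM in the jejunum and 1.72 to 5.58 CPM against 7.42 to 8.70 CPM in the ileum. Of these 17 genes, 10, 10, 6 and 9 had 0 counts in all positive libraries of the duodenum, jejunum, ileum and colon, and *Adgre1*, a macrophage marker, had 0 counts in all 24 libraries.

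Summed levels of the B-cell list were lower in every positive than in every negative library of the jejunum, at 0.192 to 0.390 CPM against 0.986 to 2.70 CPM. Both B-cell genes tested, *Ms4a1* and *Cd79b*, fell there (adjusted p = 0.0473 and 0.0408 by edgeR), at no more than 1 count in any positive library. In the ileum the 8 B-cell genes overlapped, at 0.147 to 5.10 CPM in positive and 0.665 to 4.41 CPM in negative cells. The 11 genes of T cells and innate lymphocytes in the list used here summed to 0.766 to 6.07 CPM in positive and 0.986 to 15.3 CPM in negative cells of the jejunum, and to 0.269 to 17.5 CPM against 0.247 to 16.7 CPM in the ileum, with overlap in both regions. The 6 that were tested had adjusted p values of 0.0930 to 0.995 by edgeR over the 4 regions, and unadjusted edgeR p values were under 0.05 for *Cd7* in the jejunum (0.0468) and *Cd8a* in the colon (0.0245), both lower in positive cells by estimate. The 5 plasma cell genes summed to less in positive cells of the duodenum, at 11.1 to 17.4 CPM against 19.4 to 30.5 CPM, and to more in those of the ileum and colon, at 50.2 to 95.1 CPM in positive against 27.7 to 39.6 CPM in negative cells of the ileum and 57.5 to 64.9 CPM against 40.5 to 49.9 CPM in the colon. They overlapped in the jejunum. *Sdc1*, a syndecan that epithelial cells also carry, made up nearly all of these sums, with means of 65.9 and 32.2 CPM in the ileum, whereas *Jchain*, the joining chain of secreted antibodies, was at 2.38 and 0.700 CPM. Over the 24 libraries the members correlated with the summed T-cell list at -0.131 to 0.441, with the pan-leukocyte list at -0.293 to 0.269 and with the dendritic cell and macrophage list at -0.422 to -0.0954 (Pearson, on log2 values). The ranges were -0.227 to 0.314 for the B-cell list, -0.150 to 0.634 for the plasma cell list and 0.316 to 0.801 for the epithelial list. The part of these cells in the class II levels was not tested.

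More members were called between the sorts in the jejunum and ileum when a measure of immune RNA was added to the model. With *Ptprc* as a covariate, the number of members higher in positive cells went from 2 to 6 in the jejunum and from 1 to 4 in the ileum, with *H2-Aa*, *H2-Ab1*, *Cd74* and *Ctss* called in both, while the number of all 15044 genes called higher went from 2747 to 2718 and from 2679 to 2686. With the summed pan-leukocyte genes as a covariate it was 7 in each, with *H2-DMa* the exception, beside 2147 and 2332 of all genes. In the duodenum *H2-Ab1* was called under both covariates, beside 1254 and 1286 of all genes higher against 1342 without one, in the colon *Ctss* alone was, and no member was lower in any of these fits. Between regions, 3 of 29 calls with a fold in positive and 3 of 12 in negative cells were lost with *Ptprc* as a covariate. This tally held only calls of the fit without a covariate, so it could not grow. Over all genes, calls between regions in negative cells went from 5083 to 4798. Leaving out the 4 libraries over 2 CPM of *Ptprc*, a choice made after the data were seen, gave 6 members in the jejunum and 1 in the ileum, beside 2442 and 2007 of all genes. In the jejunum this removes negative library 2 alone, the highest negative library for 6 of 8 members, so it is no separate check from the fit without that library, which also gave 6. A covariate takes up whatever moves with it from library to library, so these fits do not separate immune RNA from other variation between libraries.

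Markers of epithelial cell types moved with the sort as well. All 8 enterocyte genes rose in positive cells of the jejunum and all 8 in the ileum, with 2 and 3 of 8 in the duodenum and colon, beside 18.3%, 17.8%, 8.92% and 9.19% of all genes. *Apoa1*, an apolipoprotein of absorptive cells, rose by 3.56 and 4.46 in the jejunum and ileum and *Alpi*, intestinal alkaline phosphatase, by 3.33 and 4.31. Of 8 genes of stem and dividing cells, 7 fell in each of these regions, 3 in the duodenum and 5 in the colon, beside 25.6%, 20.6%, 8.10% and 3.72% of all genes called lower in the jejunum, ileum, duodenum and colon, and *Mki67*, a proliferation marker, fell by 3.87 in the jejunum and fell by 3.21 in the ileum. All 8 goblet and Paneth cell genes rose in the duodenum, jejunum and ileum and 5 in the colon, against the same shares of all genes called higher as for the enterocyte genes, and *Muc2*, the goblet cell mucin, was at 2033 to 2154 CPM in positive cells of the duodenum against 110.5 to 516 CPM in those of the jejunum and ileum. Between regions, 7 of 8 enterocyte genes were lower in positive cells of the duodenum than of the jejunum, and 8 of 8 were higher in the ileum than in the colon, beside 14.8% and 10.6% of all genes. Other comparisons departed from the class II genes. In positive cells, 6 of 8 enterocyte genes were higher and 1 lower in the duodenum than in the colon, where *H2-Ab1* alone of the class II genes was called higher, and 2 were higher and 5 lower in the duodenum than in the ileum. Of all genes, 5.82% were higher and 6.52% lower in the former and 13.0% higher and 12.4% lower in the latter comparison. In negative cells 3 were higher and 1 lower in the duodenum than in the ileum, beside 409 and 247 of 15044 genes, and 4 members were called lower there. Scaling by library size alone gave 226 genes higher and 2207 lower in this comparison. The part that the mix of epithelial cell types had in the class II levels was not tested.

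The other genes of the class II pathway showed no common direction. Of 20 genes in this list 15 were tested, of which 2 rose and 0 fell in positive cells of the duodenum, 3 rose and 3 fell in the jejunum, 3 rose and 1 fell in the ileum, and 1 rose in the colon. In the jejunum these counts were near the 18.3% and 25.6% of all genes called higher and lower, and in the other regions the background for genes called higher was 8.92% (duodenum), 17.8% (ileum) and 9.19% (colon). *Lgmn*, a lysosomal endopeptidase, rose by 2.43 in the duodenum and 2.80 in the ileum, with all positive libraries above the negative ones also in the jejunum (adjusted p = 0.0533) and colon (adjusted p = 0.0514). *Ctsh*, an aminopeptidase of the lysosome, fell by 2.60 in the jejunum and fell by 1.23 in the ileum. *March8*, a ubiquitin ligase that takes class II molecules off the surface, rose by 1.34, 1.51 and 0.92 in the jejunum, ileum and colon, and *Ctsl*, the protease that cuts the invariant chain in thymic epithelium, by 1.13 and 1.39 in the jejunum and ileum. *H2-Oa* and *H2-Ob*, the inhibitor of H2-DM, and the class II chains *H2-DMb2* and *H2-Eb2* had at most 9 counts in any library. *Rfx5*, a subunit of the complex that binds the X box, was at 1.74 to 6.01 CPM in the 8 groups and passed the test in no region.

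Some genes of the class I pathway rose in every region, the duodenum included. Of 14 genes, 4, 6, 6 and 5 rose in the duodenum, jejunum, ileum and colon, and 2 fell in the jejunum, beside 8.92%, 18.3%, 17.8% and 9.19% of all genes called higher. *H2-K1*, a class I heavy chain, was at 259, 231 and 508 CPM in positive and 85.9, 109 and 132 CPM in negative cells of the duodenum, where the class II chains did not pass the test. It rose by 1.61, 2.85, 2.72 and 1.96 in the duodenum, jejunum, ileum and colon, and *H2-D1* by 1.43, 2.18, 2.19 and 1.45. *Tapbp*, which loads peptides on class I, rose by 1.19 to 2.12, and *Tap2*, a subunit of the peptide transporter, by 1.60 to 2.72 in the jejunum, ileum and colon. Whether these differences exceed those of the class II genes was not tested.

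Of the genes of interferon gamma signalling and its targets, none fell, with 5, 9, 10 and 4 of 16 tested rising in the duodenum, jejunum, ileum and colon, beside 8.92%, 18.3%, 17.8% and 9.19% of all genes. *Jak2*, the kinase of the interferon gamma receptor, rose by 1.70, 2.74, 2.51 and 1.39. The guanylate-binding protein *Gbp2* rose by 4.95 in the duodenum, from 0.0648 to 0.491 CPM in negative to 5.73 to 10.1 CPM in positive cells, and by 2.70 in the ileum. *Gbp3* rose by 2.24, 2.72 and 3.30 in the duodenum, jejunum and ileum, and *Irgm2*, an immunity-related GTPase, by 2.20 and 1.72 in the jejunum and ileum. *Irf1*, the transcription factor that acts on the *Ciita* promoter, was not chosen by the rule for named genes and is given after its values were seen: it rose by 1.35, 1.41 and 1.46 in the jejunum, ileum and colon and had an estimate of 0.85 in the duodenum (adjusted p = 0.0627).

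The classical costimulatory ligands of antigen-presenting cells were near absent from the counts. *Cd80* and *Cd86* had at most 1 count in any library, below the floor of 3. Of 10 ligands in the list 6 were tested, and 4 rose in each of the jejunum, ileum and colon and 0 in the duodenum, beside 18.3%, 17.8%, 9.19% and 8.92% of all genes. *Cd274*, which encodes the inhibitory ligand PD-L1, rose by 3.64 in the ileum and 3.28 in the jejunum. In the colon it was at 3.63, 2.69 and 1.23 CPM in positive cells with its negative libraries at or under the floor. The butyrophilin-like genes, which are known from the interplay of enterocytes with gamma delta T cells, rose in the same 3 regions: *Btnl6* by 2.66, 3.29 and 3.72, *Btnl2* by 2.99, 3.71 and 2.83, and *Btnl1* by 2.04, 2.79 and 2.04.

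**Figure D4:**
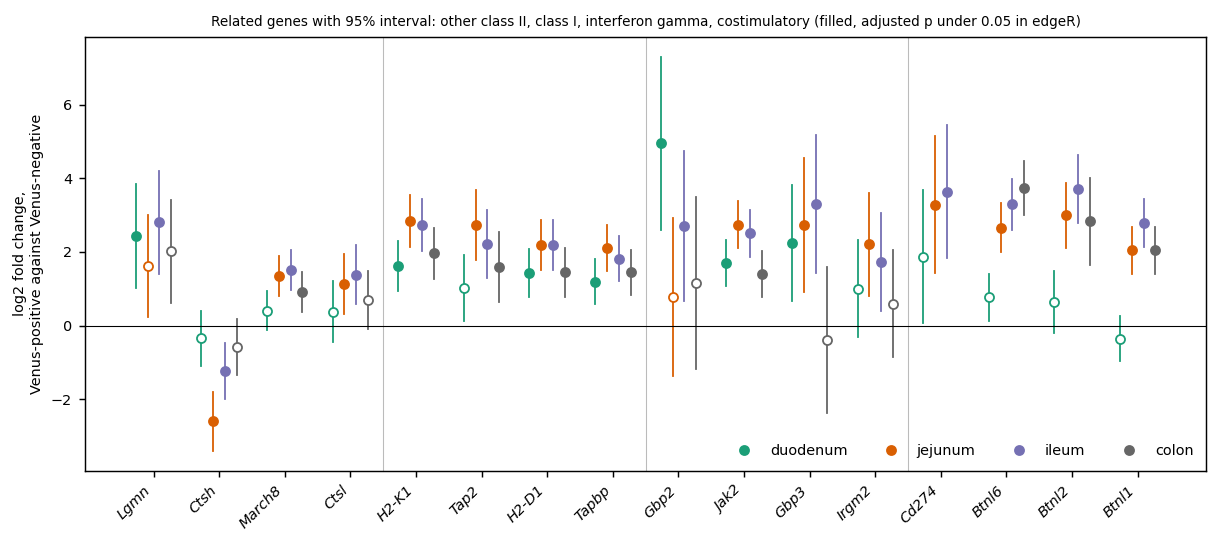
Log2 fold change of Venus-positive against Venus-negative cells (vertical axis) with its 95% interval for the named genes (horizontal axis) of 4 lists, from left to right other class II pathway genes, class I pathway, interferon gamma and costimulatory ligands, with the region as colour. Filled points have an adjusted p under 0.05 in edgeR, and *Cd274* has no point for the colon, where negative cells were at the floor. The class I genes *H2-K1*, *H2-D1* and *Tapbp* were filled in all 4 regions, in contrast to the 3 butyrophilin-like genes, which were open in the duodenum.

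Genes with the pattern most like that of *H2-Aa*, *H2-Ab1*, *H2-Eb1* and *Cd74* were ranked by the Pearson correlation of log2 CPM with the mean z-score of these 4, over 24 libraries. First were *Reg3g* (0.965) and *Reg3b* (0.912), antimicrobial lectins of the gut epithelium, then *Sept5* (0.912), *Bend7* (0.903), *Ocm* (0.902), *Mgam* (0.901), *Tpm3* (0.900), *Enpep* (0.898), *Malrd1* (0.891) and *Nos2* (0.890). These coefficients hold the differences between regions and sorts that many genes share, and they are given without a test. The order depended on the measure. By Spearman correlation *Reg3g* stayed at rank 1, while *Sept5* was at 11 and *Nos2* at 21. By the means of the groups *Reg3g* was at rank 3, but *Ocm* was at 13, *Bend7* at 17 and *Tpm3* at 19. *Enpep* was at 25, *Reg3b* at 47 and *Nos2* at 51 by that measure.

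*Reg3g* was at 2485 ± 1149.6 CPM (SD, n = 3) in positive cells of the ileum, 691 ± 382 CPM in the jejunum, 141 ± 80.8 CPM in the duodenum and 44.5 ± 2.81 CPM in the colon, the order of the class II chains. In negative cells it was at 673 ± 464 CPM in the ileum and 449 ± 331 CPM in the jejunum. *Mgam*, the brush border enzyme maltase-glucoamylase, was at 1739.8 ± 108 CPM and 2231 ± 430 CPM in positive cells of the jejunum and ileum against 327 ± 73.5 CPM and 387 ± 112 CPM in negative cells. *Nos2*, the inducible nitric oxide synthase, was at 70.3 ± 58.6 CPM and 234 ± 151 CPM in positive cells of the jejunum and ileum and under 3 CPM on average in both sorts of the duodenum and colon.

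**Figure D5:**
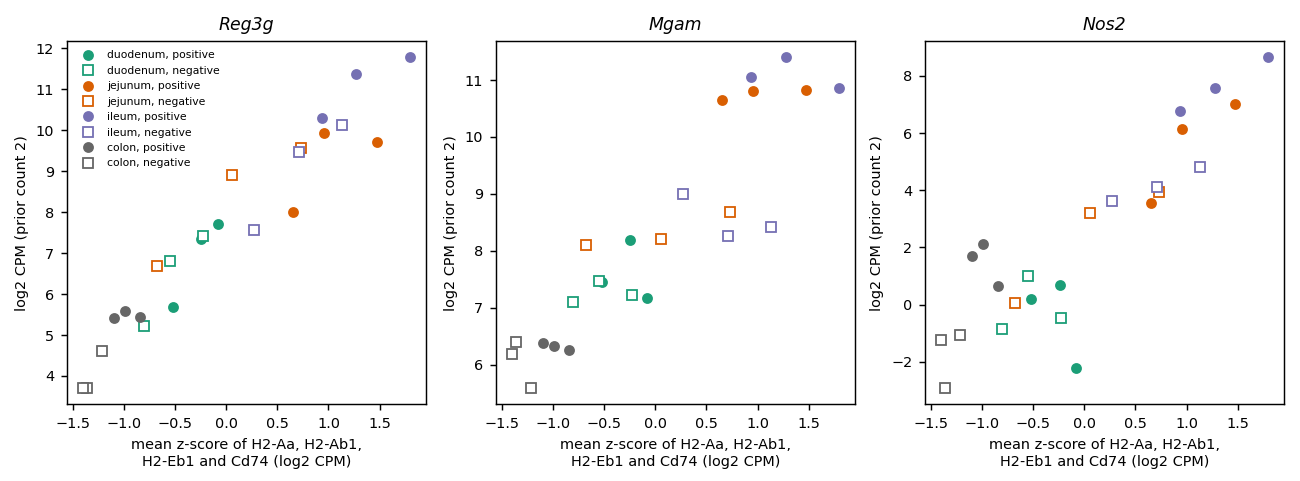
Log2 CPM (prior count 2) of *Reg3g*, *Mgam* and *Nos2* (vertical axes) against the mean z-score of *H2-Aa*, *H2-Ab1*, *H2-Eb1* and *Cd74* (horizontal axes) in the 24 libraries, with filled circles for Venus-positive and open squares for Venus-negative cells and colour for the region. *Reg3g* rises with the class II score over the 24 libraries (Pearson 0.965), whereas *Mgam* and *Nos2* are mainly high in positive cells of the jejunum and ileum.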

How the data were processed

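RNA of sorted cells was made into stranded total RNA libraries from 10 ng (SMARTer Pico v2 kit) and sequenced as single 50-base reads. The authors aligned them to GRCm38 with STAR and counted reads per gene, and the submitters' processing notes name STAR 2.5.1 and CASAVA. The deposited values are raw counts without normalisation. The annotation and strand setting of the counting are not given in the sources used here. The 4 rows naming no gene, which held 39.4% to 75.8% of reads, were left out of library sizes and tests. Gene names and positions were taken from GENCODE M21.

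Tests were run with edgeR 4.0.16 and limma 3.58.1 under R 4.3.3. Genes were filtered by filterByExpr (minimum count 10, minimum total 15), and the counts were normalised by TMM and fitted by a robust quasi-likelihood model of 24 libraries with 1 coefficient per group. P-values were adjusted by Benjamini-Hochberg over 15044 genes, with a threshold of 0.05. DESeq2 1.42.0, other scalings and filters, mitochondrial genes left out, the i5 index, 4 immune covariates, fits of the compared libraries alone and leaving out each library were the alternatives. Scripts were tested on simulated data, and figures were drawn in Python 3.11.15 with matplotlib 3.10.9.

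The members and lists were chosen with earlier results of these data known. 1 gene of the T-cell list is not reported here and was left out of its sums. Named were all members, *Ptprc*, up to 4 genes of each list with the largest mean change among those called the same way in 2 or more regions, list genes at 0 counts in every library, and the 10 genes most like the class II chains. *Cd80*, *Cd86*, *H2-Oa*, *H2-Ob*, *H2-DMb2*, *H2-Eb2*, *Rfx5* and *Irf1* were named after their values were seen. Motifs were searched on both strands of windows from 250 bases before to 50 after each start.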

Additional observations from a re-analysis of the deposited data

Results flagged for a closer look

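The difference of *Ctss* between Venus-positive and Venus-negative cells was not the same in all regions by the interaction tests of edgeR. On the log2 scale it was -1.93 for the duodenum relative to the jejunum, -2.35 relative to the ileum and -1.74 relative to the colon. The mean level behind these values was 23.3 ± 6.33 CPM (SD, n = 3) in positive and 30.2 ± 5.78 CPM in negative cells of the duodenum, against 94.5 ± 6.26 CPM and 36.8 ± 8.59 CPM in the colon. Groups of 3 libraries are too small for a search for single outlying libraries, so none was made.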

How the results depend on the processing

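No paired analysis was run, because the labels name no mouse and the library numbers are in accession order. The tests between the sorts therefore held no term for the mouse, and what a fit by mouse would call was not tested. *Ctss* in the jejunum, ileum and colon stayed called in 13 of 13 alternatives and in 6 of 6 fits without 1 library each, and *H2-Ab1* in the jejunum in 12 of 12 alternatives and 3 of 6. Scaling by library size alone moved the median of all genes in the duodenum from -0.16 to 0.27 and turned *Ctss* there to 0.0849, and gave 4 members higher in the jejunum, with 3344 of all genes higher against 2747. Fits of the compared libraries alone gave 1 member in the duodenum and 3 in the ileum, with 1764 of 11711 and 2849 of 12613 genes higher against 1342 and 2679 of 15044. With at least 10 counts in every library, which left 1 member to test, there was 1 higher in the jejunum, and 3 of 6 tests were called between regions in positive and 0 of 6 in negative cells. Covariates gave, for the duodenum, jejunum and ileum, 1, 6 and 4 members higher with *Ptprc*, 1, 7 and 7 with the pan-leukocyte genes and 1, 6 and 5 with dendritic cell and macrophage genes, and 7 and 3 in the jejunum and ileum with B-cell genes. *H2-Eb1* in the colon turned to 0.22 with B-cell genes and 0.38 with dendritic cell and macrophage genes. The joint interaction test called 2 members without a filter, 2 with *Ptprc* and 3 with the pan-leukocyte genes, which also gave 8 calls in 48 tests between regions in negative cells, against 17. Without the 4 libraries over 2 CPM of *Ptprc* 6 members were higher in the jejunum. Leaving out 1 library gave 1 to 6 members higher in the jejunum (6 without negative library 2), 1 to 2 in the ileum (2 without positive library 1 or negative library 2) and 1 to 2 in the colon (2 without negative library 3), and 2572, 2535, 2337 and 1034 of all genes were higher in these 4 fits, against 2747, 2679, 2679 and 1383. It moved *H2-Aa* in the duodenum between -0.13 and 1.22, *Cd74* there between -0.0701 and 0.58, *Ciita* between -0.0732 and 1.77 in the jejunum and between -0.0209 and 1.52 in the ileum, *H2-DMa* in the ileum between -0.15 and 1.31, and *H2-Eb1* in the colon between -0.95 and 0.98. The cause of these shifts was not tested. Of calls between regions in positive cells, 344 of 351 repeats under other settings and 159 of 174 without 1 library remained, against 122 of 143 and 44 of 72 in negative cells. *Ciita* and *H2-DMb1* were near the floor in the duodenum and colon, where small differences of these 2 genes were not detectable at this depth.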

Other observations

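Of the markers fixed for other cell types, tuft cell genes fell in positive cells, 2, 4 and 4 of 4 in the duodenum, jejunum and ileum and 0 in the colon, beside 8.10%, 25.6%, 20.6% and 3.72% of all genes called lower. *Pou2f3*, the transcription factor of tuft cells, had 0 counts in the 3 positive libraries of the jejunum, against 0.846 to 4.55 CPM in negative cells, and *Il25* had 0 counts in all 24 libraries. Among genes of M cells, the epithelial cells that carry antigen across the follicle surface, *Spib* fell by 3.21, 3.04 and 2.80 in the duodenum, jejunum and ileum, while the chemokine gene *Ccl9* rose by 4.97 in the duodenum and 1.73 in the ileum. None of these lists was picked for its relation to the class II genes.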
